A study of Mus musculus with 20 samples.

Results

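RNA from the abdominal aorta of 10 wild-type (WT) mice was compared on day 14 of a subcutaneous infusion from osmotic pumps, 5 mice given angiotensin II (Ang II) at 1000 ng/kg per minute and 5 given saline. They were chosen by their labels, as all WT mice among the 20 mice of the study. The labels give the strain as C57BL/6 and the age as 6 months. The study's methods describe male C57Bl/6NCrl mice of a younger age. Both groups kept an intact *Plod1*, the gene deleted in the other 10 mice of the study (written *Plod1*-/-). Each library came from 1 mouse, and replicates are numbered as in the labels. The study asked what Ang II changes in the aorta with and without *Plod1*, and the comparison here is the WT side of that question.

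Ang II is the effector peptide of the renin-angiotensin system. It acts on smooth muscle and other wall cells through the AT1 receptor, a receptor coupled to G proteins, and is known for vasoconstriction, for activation of MAP kinases and serum response factor, and, when infused, for hypertension, matrix remodelling and leukocyte entry into the wall. The abdominal aorta is an elastic artery whose media is made of smooth muscle, with an endothelium inside and an adventitia of fibroblasts and perivascular fat outside. A library of whole aorta holds RNA of all of these, so fewer cells of a type and less RNA per cell cannot be told apart. The values were FPKM, fragments scaled to transcript length and to the size of the library, and were analysed as log2(FPKM + 1), a scale on which the change of a gene with a low FPKM is understated. Genes entered the test when 5 or more of the 10 mice had an FPKM of 1 or higher. A gene is said to be called where limma's two-sided test gave a Benjamini-Hochberg adjusted p below 0.05 together with a log2 fold change beyond 1 in either direction.

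Of 11994 genes tested, 1039 were called (8.66%), 765 of them higher under Ang II (6.38% of the genes tested) and 274 lower (2.28%). An adjusted p below 0.05 without the fold threshold was reached by 16.5% of the genes tested with a higher and by 21.5% with a lower level. For 17.3% of the genes tested, every mouse of one group lay above every mouse of the other. The median log2 fold change of all genes tested was -0.14, and the programs below are to be read against that value and these shares.

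Genes of fat led the increases. *Ucp1*, the uncoupling protein of brown fat, was at 8.77, 4.68, 79.3, 0.955 and 159.9 FPKM in saline-treated replicates 1 to 5 and at 1356, 1879, 1317, 208 and 1201 FPKM in Ang II-treated replicates 1 to 5. Ang II-treated replicate 4 had the lowest value of its group but lay above every saline-treated mouse (log2 fold change 5.83 ± 1.10 (SE), adjusted p = 0.00383). The 22 white and general adipocyte genes tested had 21 genes called higher, as had 18 of 19 genes of fatty acid and triglyceride synthesis, all 31 of fatty acid oxidation and the citrate cycle, 11 of 15 of brown fat and 51 of 77 nuclear genes of the respiratory chain. Genes encoded in mitochondria took 8.37% to 14.6% of the summed FPKM under saline and 14.6% to 29.1% under Ang II. Of 16 skeletal muscle genes tested 5 were called higher and 2 lower, and 6 had a lower mean log2 level. *Casq1*, calsequestrin, was called lower with no overlap, at 46.4, 47.5, 30.9, 41.8 and 35.5 FPKM under saline and 2.72, 11.9, 16.3, 29.7 and 14.6 FPKM under Ang II (log2 fold change -1.63 ± 0.44 (SE), adjusted p = 0.016). *Acta1*, skeletal actin, was at 0.336, 141, 77.2, 8.30 and 111 FPKM in Ang II-treated replicates 1 to 5 against at most 2.18 FPKM under saline, and its call was lost without Ang II replicate 2, 3 or 5 (log2 fold change 3.27 to 3.48).

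To describe the vessel wall apart from fat and muscle, 2 sets of genes were put aside: 198 tested members of the fat, muscle and mitochondrial lists, of which 149 were called higher and 2 lower, and 1271 genes whose level followed the adipocyte or skeletal muscle markers at a correlation of at least 0.7 across the 10 *Plod1*-/- mice, which the comparison does not use. Among these followers 431 were called higher and 11 lower. The other 10525 genes tested, called wall genes here, had a median log2 fold change of -0.18, with 185 called higher (1.76%) and 261 lower (2.48%). FPKM are relative to the other genes of a library, so genes that gain a large share can lower the rest. The summed FPKM were not fixed, at 353864 to 364341 under saline and 359884 to 430580 under Ang II. How far the rest was lowered was not tested. After the listed genes were removed and the remaining FPKM of each mouse rescaled to equal sums, the median of all genes moved from -0.14 to -0.00288 and 282 wall genes were called higher and 149 lower. With the followers removed as well the median was 0.05, and 371 wall genes were called higher and 98 lower. The split into higher and lower wall genes therefore depended on the scaling, and calls that ended under a rescaling are given with each program.

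The files hold no counts, so the depth of a library is unknown. Of the cell type markers checked against the label of aorta, *Acta2* of smooth muscle was the most abundant in every mouse, and the B and T cell markers *Cd79a*, *Cd3e* and *Cd2* were at most 2.92 FPKM. Some libraries stood apart from their group. Ang II-treated replicate 4 had a mean log2 level of the white adipocyte list of 5.60, against 6.90 to 7.55 in the other Ang II-treated mice and 2.95 to 4.80 under saline, and a contractile smooth muscle level of 8.61, inside the saline range of 8.40 to 8.67. Without it 752 wall genes were called instead of 446. Ang II-treated replicate 1 had the highest macrophage level, 5.53 against 3.62 to 3.81 in the other 4, the lowest contractile level, 7.15, and the lowest skeletal muscle level. Without both of these mice, a setting chosen after the data were seen, 281 wall genes were called higher and 525 lower. Among the saline-treated mice, replicate 1 had the highest early gene level (6.64 against 4.43 to 5.53), and replicates 3 and 5 had more fat RNA than the other 3. What part these differences have in the results was not tested.

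**Figure D1:**
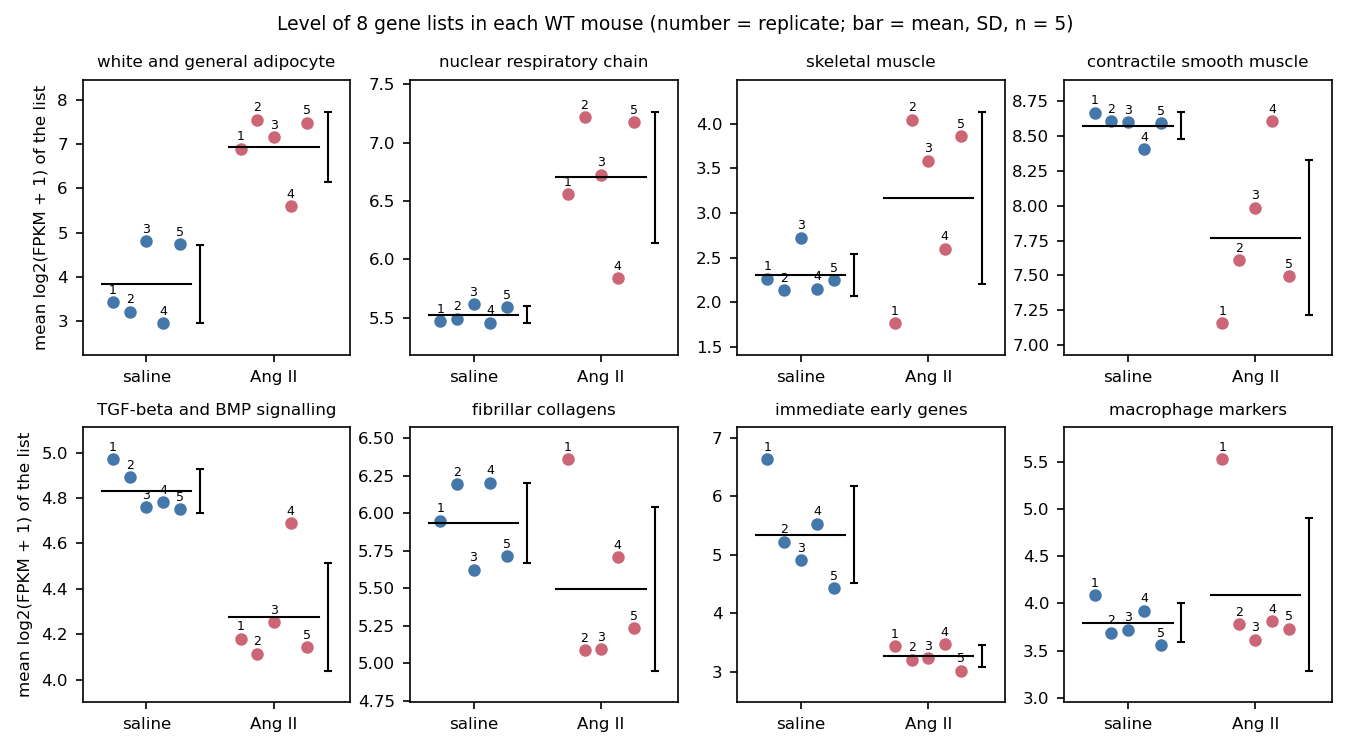
Mean log2(FPKM + 1) of the tested members of 8 gene lists (y axis) in each WT mouse on saline or Ang II (points, numbered by replicate), with the group mean and SD (n = 5). Ang II-treated replicate 4 sits nearest to the saline-treated mice for fat, contractile and TGF-beta genes, replicate 1 is highest for macrophage genes, and the early gene levels of the groups do not overlap.

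**Figure D2:**
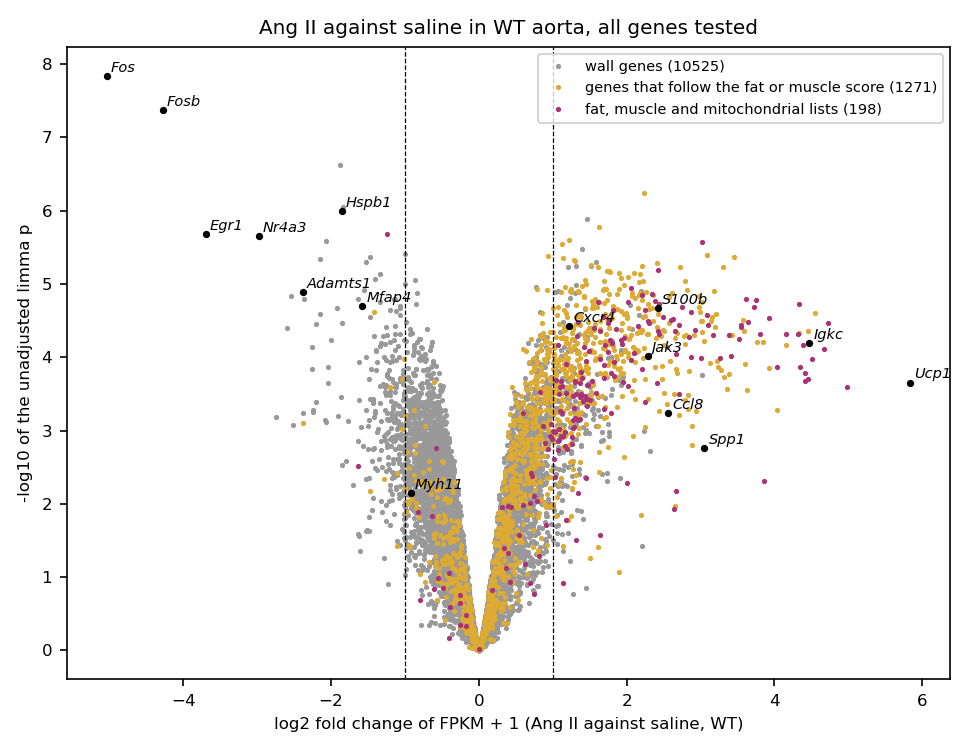
Log2 fold change of FPKM + 1 under Ang II (x axis) and -log10 of the unadjusted limma p (y axis) of the 11994 genes tested, coloured as 10525 wall genes, 1271 followers of fat or muscle and 198 genes of the fat, muscle and mitochondrial lists. Dashed lines mark a log2 fold change of 1 in size, and *Fos* and *Fosb* stand at the upper left.

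Immediate early genes, which are transcribed within minutes of a stimulus without new protein synthesis and whose transcripts are short-lived, held the 5 largest decreases of all genes tested. Of 21 members tested 13 were called lower and 0 higher, against 2.28% of all genes tested called lower. For 14 the groups did not overlap, against 17.3% of all genes tested. Their median log2 fold change was -2.04, and -1.87 and -1.75 under the rescalings, in which 12 were called lower each time. The other member, *Jund*, was below the filter, at 0.164 to 0.736 FPKM under saline and 0.125 to 1.000 FPKM under Ang II (exact permutation p = 0.579). Every tested member had a lower mean log2 level under Ang II. In Ang II-treated replicate 4, whose fat and contractile levels lay nearest to saline, the mean level of the list was 3.47, against 3.02 to 3.43 in the other Ang II-treated mice.

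*Fos*, a subunit of the AP-1 transcription factor, was at 229.9, 235, 206, 358 and 87.5 FPKM in saline-treated replicates 1 to 5 and at 8.94, 5.29, 4.64, 6.92 and 2.41 FPKM in Ang II-treated replicates 1 to 5. Every Ang II-treated mouse lay below every saline-treated mouse (log2 fold change -5.03 ± 0.36 (SE), adjusted p = 0.000173). *Fosb*, which also pairs with Jun proteins in AP-1, was at 46.6, 39.5, 23.0, 69.5 and 16.7 FPKM under saline and 0.549, 0.489, 1.10, 1.76 and 0.590 FPKM under Ang II (log2 fold change -4.27 ± 0.34 (SE), adjusted p = 0.000257). The lowest saline value, that of replicate 5, was well above the highest Ang II value, that of replicate 4. *Egr1*, a zinc finger factor induced by MAP kinase signalling, was at 611, 156, 141, 218 and 81.9 FPKM under saline and 12.97, 10.4, 15.8, 18.8 and 11.8 FPKM under Ang II (log2 fold change -3.70 ± 0.42 (SE), adjusted p = 0.00181). Saline-treated replicate 1 was the highest for *Egr1*, and the remaining saline-treated mice were still several times above all Ang II-treated mice.

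In the NR4A family of orphan nuclear receptors, *Nr4a3* and *Nr4a1* were called lower and *Nr4a2* was not. *Nr4a3* was at 28.1, 28.8, 6.49, 14.0 and 12.2 FPKM under saline and 1.92, 0.960, 0.776, 1.39 and 0.750 FPKM under Ang II (log2 fold change -2.98 ± 0.34 (SE), adjusted p = 0.00181). *Nr4a1* was at 741, 106, 146, 198 and 54.0 FPKM under saline, with replicate 1 far above the rest, and at 11.3, 37.4, 34.5, 32.1 and 16.3 FPKM under Ang II (log2 fold change -2.74 ± 0.59 (SE), adjusted p = 0.00663). The groups did not overlap for either gene. For *Nr4a2* saline-treated replicate 1 was the highest, at 10.6 FPKM (log2 fold change -0.85 ± 0.31 (SE), adjusted p = 0.0508).

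The other AP-1 subunits called were *Jun* (-2.15 ± 0.27), which ranged from 78.0 to 258 FPKM under saline and from 25.0 to 33.4 FPKM under Ang II, *Junb* (-2.24 ± 0.48), whose groups overlapped through Ang II-treated replicate 1 at 61.5 FPKM, and *Fosl1* (-1.48 ± 0.42). *Zfp36*, which encodes an RNA-binding protein that promotes decay of transcripts rich in A and U, was at 78.2 to 275 FPKM under saline and 23.5 to 53.8 FPKM under Ang II (log2 fold change -2.14 ± 0.32 (SE), adjusted p = 0.00187). *Ccn1*, a secreted matrix-associated protein, was at 179 to 896 and 60.6 to 153 FPKM (log2 fold change -2.04 ± 0.39 (SE), adjusted p = 0.00383), and neither gene overlapped between groups. The antiproliferative *Btg2* (-2.21 ± 0.34), *Ier2* (-2.37 ± 0.33) and *Ier3* (-1.05 ± 0.29) were also called lower. For *Egr2*, *Egr3*, *Arc* and *Atf3*, adjusted p was 0.0577, 0.0616, 0.0908 and 0.0637, and saline-treated replicate 1 had 55.0 FPKM of *Egr3* and 139 FPKM of *Arc* where the other 4 saline-treated mice had at most 3.92 and 9.65 FPKM. *Fosl2*, *Maff* and *Ier5* were not called, with log2 fold changes of -0.89 ± 0.35, -0.72 ± 0.22 and -0.27 ± 0.32 (SE). Leaving out 1 mouse ended 2 of the calls, that of *Fosl1* without Ang II replicate 2 (log2 fold change -1.37) and that of *Ier3* without saline replicate 1 or 3 or Ang II replicate 2, 3 or 5 (log2 fold change -0.87 to -0.99). *Ier3* was also not called under either rescaling (log2 fold change -0.88 and -0.76).

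**Figure D3:**
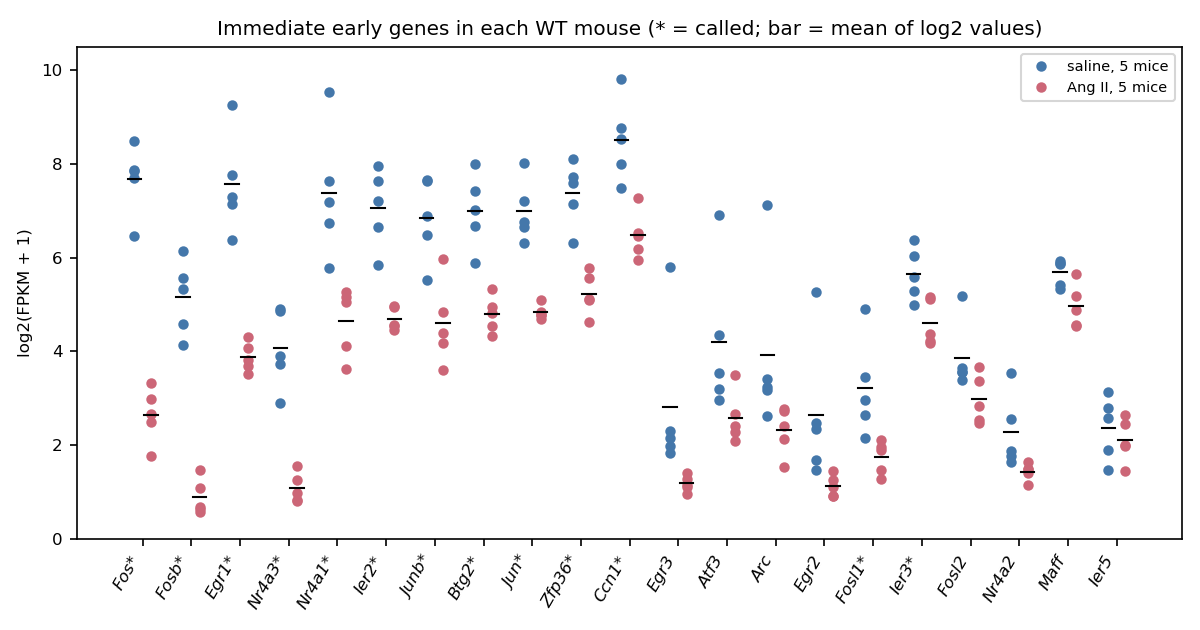
Log2(FPKM + 1) (y axis) of the 21 immediate early genes tested (x axis, from the largest decrease) in WT mice on saline (5) or Ang II (5, points), with bars for the group means and asterisks for the 13 genes called. From *Fos* to *Zfp36* the groups separate in every gene except *Junb*, and the isolated high saline points of *Egr3*, *Atf3* and *Arc* are all replicate 1.

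The promoters of *Fos*, *Fosb*, *Nr4a3* and *Nr4a1* are shown because these genes moved together, with those of *Acta2* and *Myl9*, the contractile genes with the highest FPKM. The windows are the 250 bases before the transcript start in RefSeq (GRCm38.p6), written 5′ to 3′ on the strand of the gene. Both strands were searched for the CArG box (CC, then 6 A or T, then GG), the site of serum response factor, and for the cyclic AMP response element TGACGTCA. Capitals mark CArG boxes and the shorter TGACG, in either orientation, the 5 bases at the start of that element, chosen after its matches were seen.
*Fos* (chr12:85473640-85473889, + strand): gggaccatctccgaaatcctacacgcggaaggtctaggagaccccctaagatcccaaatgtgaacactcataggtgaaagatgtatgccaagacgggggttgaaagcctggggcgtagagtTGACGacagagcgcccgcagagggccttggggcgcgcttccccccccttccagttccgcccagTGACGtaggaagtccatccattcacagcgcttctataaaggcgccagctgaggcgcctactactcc
*Fosb* (chr7:19310046-19310295, - strand): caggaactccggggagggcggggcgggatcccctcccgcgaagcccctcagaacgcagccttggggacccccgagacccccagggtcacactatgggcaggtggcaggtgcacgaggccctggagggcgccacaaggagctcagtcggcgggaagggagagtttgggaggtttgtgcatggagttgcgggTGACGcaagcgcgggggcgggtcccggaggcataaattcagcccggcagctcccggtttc
*Nr4a3* (chr4:48045055-48045304, + strand): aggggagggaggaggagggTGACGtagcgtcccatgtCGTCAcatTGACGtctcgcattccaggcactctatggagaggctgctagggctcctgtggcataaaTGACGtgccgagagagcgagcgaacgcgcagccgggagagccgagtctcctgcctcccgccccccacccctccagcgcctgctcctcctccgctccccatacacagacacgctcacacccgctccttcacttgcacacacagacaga
*Nr4a1* (chr15:101266596-101266845, + strand): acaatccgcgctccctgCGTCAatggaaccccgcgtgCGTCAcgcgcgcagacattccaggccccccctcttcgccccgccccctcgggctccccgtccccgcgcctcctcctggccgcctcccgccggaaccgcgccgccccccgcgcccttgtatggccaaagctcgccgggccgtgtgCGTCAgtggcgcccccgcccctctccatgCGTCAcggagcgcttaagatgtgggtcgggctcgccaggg
*Acta2* (chr19:34255374-34255623, - strand): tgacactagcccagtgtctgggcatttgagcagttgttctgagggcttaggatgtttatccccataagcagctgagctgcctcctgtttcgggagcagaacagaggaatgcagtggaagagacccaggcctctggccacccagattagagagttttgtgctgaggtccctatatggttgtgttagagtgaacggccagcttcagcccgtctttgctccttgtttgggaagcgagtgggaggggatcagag
*Myl9* (chr2:156775214-156775463, + strand): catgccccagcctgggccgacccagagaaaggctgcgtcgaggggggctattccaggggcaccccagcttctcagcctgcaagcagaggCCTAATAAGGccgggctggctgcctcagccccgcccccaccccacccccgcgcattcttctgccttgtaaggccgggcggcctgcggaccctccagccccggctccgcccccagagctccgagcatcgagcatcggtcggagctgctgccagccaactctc

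Of the 13 early genes called, 10 had a promoter in the table. A CArG box was in 1 of the 10 (*Zfp36*) and the full TGACGTCA in 1 (*Btg2*), against 1.47% and 1.55% of all 32851 promoters of the table. TGACG was in 7 of the 10, with 4 matches each in *Nr4a3* and *Nr4a1*, 2 in *Fos* and 1 in *Fosb*, against 17.8% of all promoters. As TGACG was chosen after its matches were seen, this count cannot show an excess over that share. The share was also not matched for GC content. *Myl9* held 1 CArG box, which began 161 bases before the start, and *Acta2* held no exact match to these motifs in this window. The *Acta2* window holds ccctatatgg and ccttgtttgg, which each differ from the CArG box by 1 base. Such near matches were not counted in any promoter. A match describes the letters only.

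Genes that restrain MAP kinase and growth factor signalling had 2 of 12 members called lower and 1 higher (median log2 fold change -0.32), against 2.28% and 6.38% of all genes tested. *Errfi1*, an inhibitor of the EGF receptor family, was at 951, 199.6, 119.8, 217 and 106 FPKM under saline and 36.2, 34.2, 39.5, 87.6 and 17.5 FPKM under Ang II, with no overlap (log2 fold change -2.52 ± 0.56 (SE), adjusted p = 0.00764). *Dusp1*, a phosphatase of MAP kinases that is itself an early gene and a glucocorticoid target, was at 539, 355, 358, 375 and 199 and 82.1, 107, 111, 145 and 57.2 FPKM, again with no overlap (log2 fold change -1.85 ± 0.28 (SE), adjusted p = 0.00197). *Dusp4*, of the same family, was at 0.271 to 0.887 FPKM under saline and rose to 1.09 to 6.11 FPKM under Ang II (log2 fold change 1.68 ± 0.31 (SE), adjusted p = 0.00339) and was 1 of the genes that followed fat. It was below 1 FPKM in every saline-treated mouse and passed the filter only through the Ang II group. Among 8 glucocorticoid-responsive genes tested, 3 were called lower (median -1.06): *Dusp1*, *Fkbp5*, a co-chaperone of the receptor (-1.29 ± 0.37, a follower), and the kinase *Sgk1* (-1.18 ± 0.25). The call of *Sgk1* was lost without saline replicate 1 (log2 fold change -0.96) and once followers were removed (-0.89).

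The mean log2 level of the contractile genes of smooth muscle was 7.15 to 7.99 in 4 Ang II-treated mice and 8.61 in replicate 4, against 8.40 to 8.67 under saline. Of 13 members tested, all had a lower mean log2 level, 8 had an adjusted p below 0.05 and 3 passed the fold threshold as well, with a median log2 fold change of -0.79 and medians of -0.61 and -0.49 under the rescalings, in which no member was called. Of all genes tested, 21.5% had an adjusted p below 0.05 with a lower level and 2.28% were called lower. *Acta2*, smooth muscle actin, was at 17399.5, 15201, 13026, 11783 and 12807 FPKM in saline-treated replicates 1 to 5 and at 4582, 6712, 8599, 14302 and 6989 FPKM in Ang II-treated replicates 1 to 5. Ang II-treated replicate 4 lay within the saline range and the other 4 below it (log2 fold change -0.86 ± 0.29 (SE), adjusted p = 0.0388), and without that mouse the gene was called at -1.08. *Myh11*, the heavy chain of smooth muscle myosin, was at 1353, 1191, 1213, 930.1 and 1199 FPKM under saline and 363, 522, 811, 1179.9 and 489 FPKM under Ang II (log2 fold change -0.92 ± 0.28 (SE), adjusted p = 0.0265), with the same mouse apart.

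The genes called were *Actg2*, enteric smooth muscle actin, at 311 to 363 FPKM under saline and 104 to 291 FPKM under Ang II (log2 fold change -1.14 ± 0.25 (SE), adjusted p = 0.00692), *Cnn1*, calponin, at 806 to 1089 and 276 to 797 FPKM (log2 fold change -1.004 ± 0.24 (SE), adjusted p = 0.0109), and *Tagln*, transgelin. *Tagln* was listed at only 7.47 to 10.6 FPKM under saline and 3.37 to 4.84 FPKM under Ang II (log2 fold change -1.001 ± 0.12 (SE), adjusted p = 0.00181). It overlaps genes on the opposite strand, and its value, far below that of the other contractile genes, is uncertain. Leaving out 1 mouse ended each call, that of *Actg2* without Ang II replicate 1 (log2 fold change -0.99), that of *Cnn1* without saline replicate 1 or 2 or Ang II replicate 1, 2 or 5 (log2 fold change -0.82 to -0.98) and that of *Tagln* without saline replicate 1 or 2 or Ang II replicate 1, 3 or 5 (log2 fold change -0.94 to -0.996). Without Ang II replicate 4, 8 of 13 members were called lower, and without Ang II replicate 1, 0. The remaining members had log2 fold changes of -0.92 ± 0.31 (*Synpo2*), -0.79 ± 0.30 (*Tpm1*), -0.76 ± 0.32 (*Mylk*, myosin light chain kinase), -0.71 ± 0.21 (*Tpm2*), -0.68 ± 0.26 (*Myl9*), -0.68 ± 0.23 (*Cald1*), -0.53 ± 0.29 (*Lmod1*) and -0.45 ± 0.21 (*Smtn*), each with its SE, and none was called.

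Among 11 serum response factor, myocardin and Krüppel-like factor genes, 2 were called lower (median -0.31). *Myocd*, myocardin, the coactivator of serum response factor in smooth muscle, was at 5.20, 5.60, 2.97, 3.81 and 4.94 FPKM under saline and 1.12, 0.756, 1.49, 3.72 and 0.932 FPKM under Ang II, and the groups overlapped only through Ang II-treated replicate 4 (log2 fold change -1.16 ± 0.25 (SE), adjusted p = 0.00701). *Klf6*, a zinc finger factor induced by injury, was at 39.9 to 83.5 and 19.3 to 36.4 FPKM with no overlap (log2 fold change -1.21 ± 0.22 (SE), adjusted p = 0.00312). Both calls ended once followers were removed and values rescaled, at log2 fold changes of -0.96 and -0.92.

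The receptors and enzymes of the angiotensin and vasoconstrictor system had 15 of 23 members tested, with 1 called higher, 1 lower and a median of -0.02, which turned to 0.11 under rescaling and ranged from -0.06 to 0.06 when 1 mouse was left out. *Agtr1a*, 1 of the genes for the AT1 receptor, was below the filter. It was at 0.768, 0.279, 0.516, 0.320 and 0.394 FPKM under saline and 1.93, 1.34, 1.63, 0.613 and 1.87 FPKM under Ang II, with Ang II-treated replicate 4 the only one inside the saline range (two-sided exact permutation p = 0.0159, 0.0381 adjusted over the 12 genes below the filter that were compared). *Agtr1b* was at 0.584 to 1.67 and 0.463 to 1.27 FPKM (log2 fold change -0.47 ± 0.17 (SE), adjusted p = 0.0463). *Agtr2* was listed at 0 in every saline-treated mouse and at no more than 0.0554 FPKM under Ang II. *Ace*, the angiotensin-converting enzyme of endothelium, was at 127, 131, 147, 191 and 176 FPKM under saline and 186, 91.7, 87.3, 112 and 69.2 FPKM under Ang II and was not called (log2 fold change -0.56 ± 0.24 (SE), adjusted p = 0.0781).

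*Rgs5*, a regulator of G protein signalling found in mural cells and arterial smooth muscle, was at 455, 451, 434, 402 and 271 FPKM under saline and 97.9, 121, 132, 362 and 149.9 FPKM under Ang II. Ang II-treated replicate 4 was again the mouse inside the saline range, and the gene was called lower (log2 fold change -1.36 ± 0.31 (SE), adjusted p = 0.00818). *Ednrb*, the type B endothelin receptor, was at 1.01, 1.75, 2.05, 1.09 and 1.70 FPKM under saline and 12.1, 4.89, 4.58, 1.84 and 8.40 FPKM under Ang II and was called higher, with only Ang II-treated replicate 4 inside the saline range (log2 fold change 1.38 ± 0.34 (SE), adjusted p = 0.011). *Rgs2*, *Rgs4*, the thromboxane receptor *Tbxa2r* and endothelin *Edn1* had log2 fold changes of 0.54 ± 0.33, -0.29 ± 0.33, 0.22 ± 0.15 and -0.49 ± 0.22 (SE), and none was called. The 7 other members tested had log2 fold changes between -0.11 and 0.12. Below the filter, the alpha-1A adrenoceptor *Adra1a* and the prostaglandin receptor *Ptger3* did not overlap between groups, at 0.237 to 0.635 against 0.796 to 3.17 FPKM and 0.229 to 0.669 against 0.770 to 6.66 FPKM (exact permutation p = 0.00794 each, the smallest that 5 mice against 5 allow). The serotonin receptor *Htr2a* did not overlap either, at 0.106 to 0.413 FPKM under saline and 0.0119 to 0.0938 FPKM under Ang II (exact permutation p = 0.00794). Adjusted over the 12 genes, each p was 0.0238. Whether genes below the filter followed fat or muscle was not tested. In *Plod1*-/- mice *Adra1a* and the brown fat gene *Cidea* were both highest in replicate 2 of each treatment. The values there were 1.49 and 247 FPKM on saline and 4.14 and 337 FPKM on Ang II. *Ptger3* was highest in replicate 2 on saline and in replicate 5 on Ang II. *Agt* and *Mas1* were at no more than 2.49 FPKM in any mouse.

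Of 13 nitric oxide and cyclic GMP genes, 1 was called lower (median -0.46): *Pde3a*, a phosphodiesterase of cyclic nucleotides, at 11.9 to 17.9 FPKM under saline and 4.59 to 13.1 FPKM under Ang II (log2 fold change -1.03 ± 0.23 (SE), adjusted p = 0.00825). Its call was lost without saline replicate 4 or Ang II replicate 1, 2 or 5 (log2 fold change -0.93 to -0.97) and under both rescalings. *Cav1*, caveolin, was not called (log2 fold change -0.45 ± 0.16 (SE), adjusted p = 0.043). None of 13 potassium and calcium channel genes was called (median -0.50). *Kcnmb1*, the subunit of the calcium-activated potassium channel of smooth muscle, was at 65.6 to 79.4 and 28.1 to 81.7 FPKM (log2 fold change -0.86 ± 0.26 (SE), adjusted p = 0.024).

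Few matrix genes were called. None of the 5 fibrillar collagen genes tested was called (median -0.47). *Col1a1* was at 112, 127, 85.1, 145 and 92.2 FPKM under saline and 187, 64.0, 58.8, 78.1 and 79.1 FPKM under Ang II, where replicate 1 was the highest of all 10 mice and the other 4 lay below every saline value (log2 fold change -0.38 ± 0.29 (SE), adjusted p = 0.302). *Col1a2* was at 111 to 170.2 and 70.7 to 136 FPKM (log2 fold change -0.59 ± 0.20 (SE), adjusted p = 0.0383), below the fold threshold. Genes of collagen processing and cross-linking, the group that holds *Plod1*, had 13 of 20 members with an adjusted p below 0.05 and a lower level and 1 called, against 21.5% of all genes tested with such a p (median -0.53). That gene was *Serpinh1*, the collagen chaperone HSP47, at 682, 809.8, 533, 590.4 and 453 FPKM under saline and 232, 242, 277, 421 and 344 FPKM under Ang II with no overlap (log2 fold change -1.02 ± 0.21 (SE), adjusted p = 0.00505). Its call was lost without saline replicate 1 or 2 or Ang II replicate 1, 2 or 3 (log2 fold change -0.92 to -0.9996) and under both rescalings. *P4hb*, protein disulfide isomerase and a subunit of prolyl hydroxylase, did not overlap either (log2 fold change -0.75 ± 0.16 (SE), adjusted p = 0.00625). *Plod1* itself, lysyl hydroxylase 1, was at 26.1, 26.2, 27.9, 22.9 and 26.5 FPKM under saline and 29.7, 23.1, 22.8, 24.4 and 25.0 FPKM under Ang II (log2 fold change -0.05 ± 0.10 (SE), adjusted p = 0.688).

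Endoplasmic reticulum folding genes had 15 of 17 members at an adjusted p below 0.05 and a lower level, against 21.5% of all genes tested. Of these members 1 was called, and the median of the list was -0.59. *Hspa5*, the chaperone BiP, was at 322, 427, 264, 347 and 218 FPKM under saline and 129, 103, 122, 179.9 and 122 FPKM under Ang II (log2 fold change -1.25 ± 0.20 (SE), adjusted p = 0.00206). The groups did not overlap, and only the rescaling without followers took the change below the fold threshold, to -0.95. *Calr*, calreticulin, changed less (log2 fold change -0.40 ± 0.13 (SE), adjusted p = 0.0335). The medians of both lists stayed below 0 under the rescalings, at -0.36 and -0.24 for collagen processing and -0.42 and -0.30 for folding.

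Of 12 elastic fibre genes 1 was called lower (median -0.54). It was *Mfap4*, a protein of microfibrils, at 672, 661, 495, 692 and 618 FPKM under saline and 155, 207, 204, 376 and 158 FPKM under Ang II, and every Ang II-treated mouse lay below every saline-treated mouse (log2 fold change -1.58 ± 0.23 (SE), adjusted p = 0.00181). *Eln*, elastin, varied widely under saline, at 185, 314, 83.8, 295 and 128 FPKM, and was at 139.7, 81.0, 80.2, 75.7 and 119 FPKM under Ang II (log2 fold change -0.89 ± 0.34 (SE), adjusted p = 0.059). Among 18 basement membrane genes, 2 chains of type IV collagen made by smooth muscle, *Col4a5* (-1.04 ± 0.28) and *Col4a6* (-1.24 ± 0.27), were called lower, and laminin *Lamb1* was at 1.59 to 2.25 FPKM under saline and rose to 2.91 to 9.35 FPKM under Ang II (log2 fold change 1.33 ± 0.23 (SE), adjusted p = 0.00244). *Lamb1* followed fat. The call of *Col4a5* was lost without saline replicate 4 or Ang II replicate 2 or 5 (log2 fold change -0.89 to -0.97) and under both rescalings, and that of *Col4a6* once followers were removed, at -0.96. Of 13 proteoglycan genes 1 was called lower, *Fmod*, fibromodulin, at 112, 69.2, 74.3, 80.3 and 77.03 FPKM under saline and 8.76, 26.7, 34.0, 82.6 and 23.2 FPKM under Ang II (log2 fold change -1.53 ± 0.43 (SE), adjusted p = 0.0205), where only replicate 4 lay inside the saline range. Its call ended once followers were removed, at -1.24. *Bgn*, biglycan, was at 1261 to 1436 and 624 to 1275 FPKM (log2 fold change -0.79 ± 0.19 (SE), adjusted p = 0.0111).

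Genes of TGF-beta and BMP signalling had 6 of 25 members called lower and 0 higher, with 13 at an adjusted p below 0.05 and a lower level (median -0.68, -0.51 and -0.39 under the rescalings). Of all genes tested, 2.28% were called lower and 21.5% had such a p with a lower level. Among the ligands, *Bmp4* was at 27.5, 22.5, 30.7, 33.6 and 21.7 FPKM under saline and 14.1, 7.37, 8.55, 18.4 and 9.52 FPKM under Ang II with no overlap (log2 fold change -1.22 ± 0.23 (SE), adjusted p = 0.00357), and *Tgfb3* was at 189, 120.1, 72.5, 49.5 and 78.7 and 22.8, 35.1, 41.1, 67.2 and 42.9 FPKM (log2 fold change -1.20 ± 0.35 (SE), adjusted p = 0.0229). The receptor *Tgfbr1* was at 22.1, 28.1, 19.5, 33.1 and 21.5 FPKM under saline and 10.8, 8.24, 9.33, 16.9 and 7.82 FPKM under Ang II (log2 fold change -1.18 ± 0.21 (SE), adjusted p = 0.00273). No mouse of either group crossed into the range of the other for this receptor. Of the target genes, *Id1*, a target of BMP, was at 312, 267, 254, 233 and 160.2 FPKM under saline and 66.4, 125, 106, 164 and 96.2 FPKM under Ang II (log2 fold change -1.16 ± 0.24 (SE), adjusted p = 0.0056). Saline-treated replicate 1 held the highest *Id1* and *Tgfb3* values. The fits that left out 1 mouse ended 2 calls, that of *Id1* without Ang II replicate 1 (log2 fold change -0.99) and that of *Tgfb3* without saline replicate 1 or 2 or Ang II replicate 2 (log2 fold change -0.94 to -1.15). With values rescaled 4 members were called, and *Id1* was not (log2 fold change -0.98). With followers removed 1 was called, and the log2 fold changes of *Bmp4*, *Tgfbr1*, *Tgfb3* and *Id1* were -0.94, -0.90, -0.90 and -0.86. Without Ang II replicate 4, 11 were called.

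Matricellular proteins, secreted proteins that act on cells from the matrix, split into both directions, with 2 of 16 called higher and 3 lower (median -0.45). Of all genes tested, 6.38% were called higher and 2.28% lower. *Spp1*, osteopontin, was at 1.14, 2.62, 2.28, 4.18 and 2.74 FPKM under saline and 282, 17.97, 10.2, 9.37 and 30.2 FPKM under Ang II. Ang II-treated replicate 1 had by far the highest value, and the other 4 also lay above every saline-treated mouse (log2 fold change 3.05 ± 0.75 (SE), adjusted p = 0.0115). Without replicate 1 the log2 fold change was 2.23, and the call held. *Comp*, cartilage oligomeric matrix protein, was at 26.7 to 39.6 FPKM under saline and 57.5 to 106 FPKM under Ang II with no overlap (log2 fold change 1.31 ± 0.19 (SE), adjusted p = 0.00181), and it followed fat. *Postn*, periostin, was at 127, 185, 143, 203 and 142 FPKM under saline and 53.6, 49.5, 57.6, 110.3 and 53.1 FPKM under Ang II, again with no overlap (log2 fold change -1.34 ± 0.22 (SE), adjusted p = 0.00227). *Ccn2*, connective tissue growth factor, was at 436 to 1262 and 185 to 397 FPKM (log2 fold change -1.49 ± 0.33 (SE), adjusted p = 0.0071). *Ccn3* was called at -1.02 ± 0.29, and lost the call without saline replicate 3 or 5 or Ang II replicate 2 or 5 (log2 fold change -0.88 to -0.96) and under both rescalings. *Thbs1*, thrombospondin 1, which activates latent TGF-beta and binds CD47, was at 19.3, 18.1, 5.28, 11.9 and 7.84 FPKM under saline and 13.1, 3.92, 4.14, 5.52 and 6.30 FPKM under Ang II and was not called (log2 fold change -0.81 ± 0.36 (SE), adjusted p = 0.0946). It was called without Ang II replicate 1, at -1.06, and without saline replicate 3. *Cd47* had a log2 fold change of -0.02 ± 0.16 (SE).

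Of 29 matrix protease and inhibitor genes tested, 2 were called higher and 3 lower, against 6.38% and 2.28% of all genes tested. The median of the list was -0.34, against -0.14 for all genes tested. *Adamts1*, a protease that cleaves versican, was at 159, 119, 83.3, 146 and 82.3 FPKM under saline and 26.4, 14.97, 19.1, 45.8 and 11.7 FPKM under Ang II, the lowest saline value being above the highest Ang II value (log2 fold change -2.38 ± 0.33 (SE), adjusted p = 0.00181). *Adamts15*, of the same family, was at 9.17, 1.64, 2.92, 6.16 and 1.59 FPKM under Ang II against 4.45 to 16.8 FPKM under saline (log2 fold change -1.25 ± 0.41 (SE), adjusted p = 0.0334). *Timp3*, an inhibitor of metalloproteinases bound to the matrix, was at 28.5 to 47.3 and 9.47 to 29.5 FPKM (log2 fold change -1.08 ± 0.28 (SE), adjusted p = 0.0152). *Timp4* was at 5.38 to 13.1 FPKM under saline and rose to 9.21 to 27.2 FPKM under Ang II (log2 fold change 1.14 ± 0.29 (SE), adjusted p = 0.0123), with Ang II-treated replicate 4 inside the saline range. Cathepsin S, *Ctss*, a protease of macrophages, was at 16.3, 10.7, 12.4, 13.7 and 9.38 FPKM under saline and 144, 26.8, 21.1, 16.3 and 31.1 FPKM under Ang II, where replicate 1 stood far above the rest (log2 fold change 1.38 ± 0.47 (SE), adjusted p = 0.0381). The calls of *Adamts15* and *Ctss* were lost in 7 and 8 of the 10 settings that left out 1 mouse, *Ctss* without Ang II replicate 1 at 0.86, and that of *Timp3* without saline replicate 5 or Ang II replicate 2 or 5 (log2 fold change -0.91 to -0.97). Neither *Adamts15* nor *Timp3* was called under either rescaling. *Mmp2*, *Mmp9* and *Mmp19* were not called. *Mmp2* was at 51.9 to 90.1 and 30.6 to 106 FPKM (log2 fold change -0.41 ± 0.29 (SE), adjusted p = 0.275), *Mmp9* at 1.44 to 5.39 and 2.28 to 12.6 FPKM (log2 fold change 0.43 ± 0.39 (SE), adjusted p = 0.387) and *Mmp19* at 3.70 to 5.15 and 2.41 to 7.68 FPKM (log2 fold change -0.06 ± 0.21 (SE), adjusted p = 0.826). *Mmp12* was at or below 0.209 FPKM in every mouse.

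**Figure D4:**
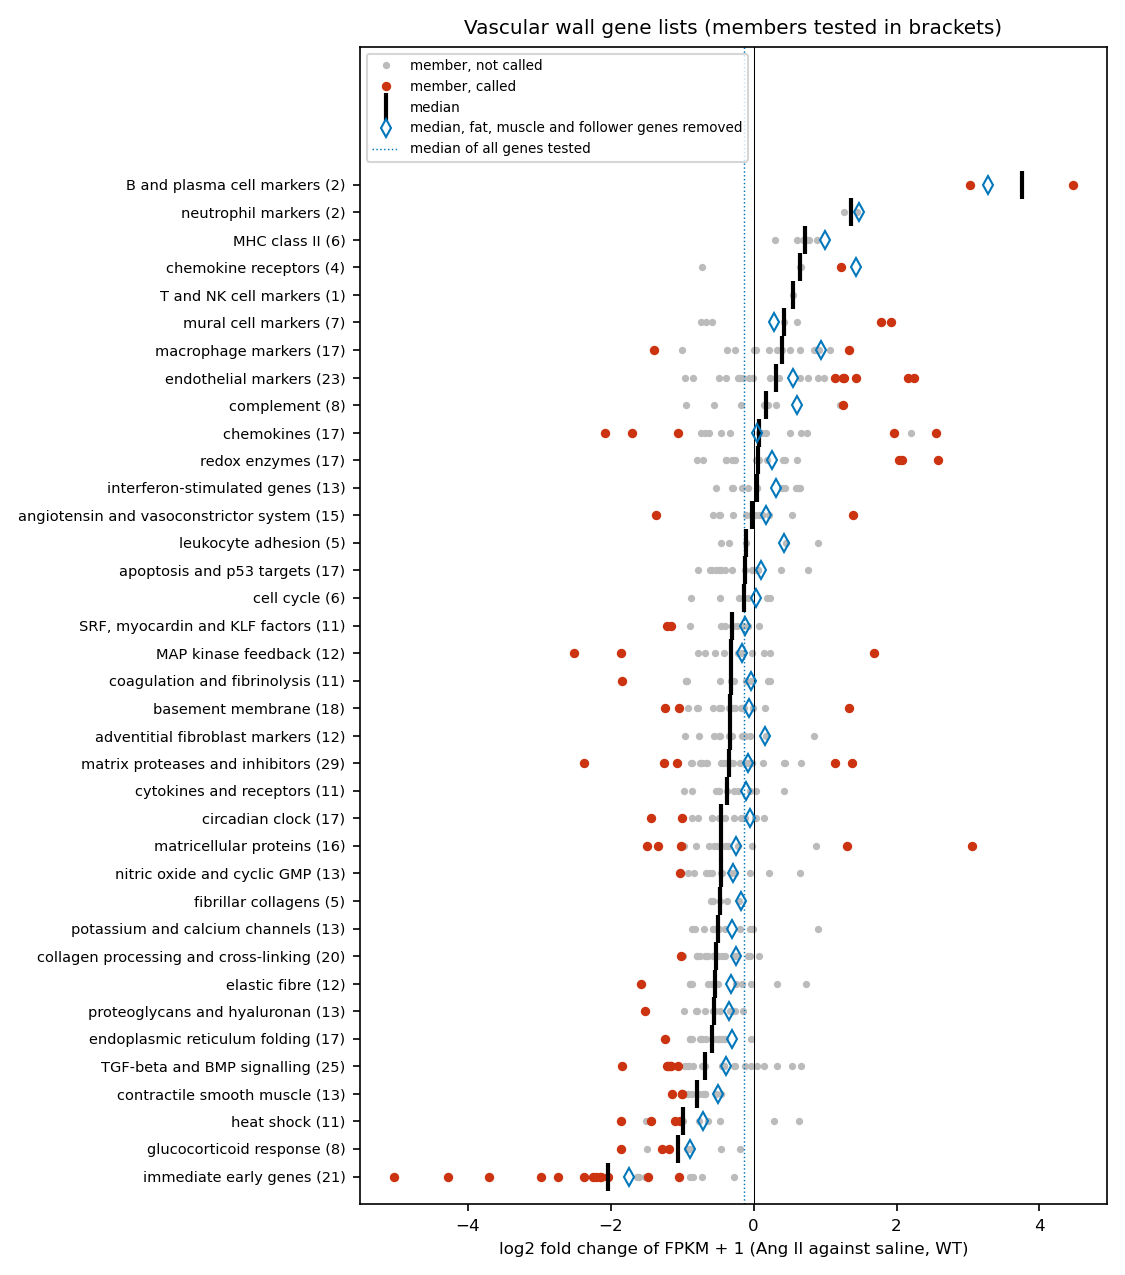
Log2 fold change of FPKM + 1 (x axis) of each tested member (points, red where called) of the vascular wall gene lists (y axis, members tested in brackets), with the median (bar), the median after removal of fat, muscle, mitochondrial and follower genes and rescaling (diamond) and the median of all genes tested, -0.14 (dotted line). Early genes have the lowest median, -2.04, and B and plasma cell markers the highest, 3.75.

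Endothelial markers had 6 of 23 members called higher and 0 lower (median 0.32), against 6.38% and 2.28% of all genes tested, and 9 of the 23 followed fat. *Kdr*, the VEGF receptor 2, was at 0.325, 0.258, 1.74, 0.115 and 1.33 FPKM under saline and 3.99, 10.51, 10.3, 2.11 and 13.04 FPKM under Ang II with no overlap (log2 fold change 2.24 ± 0.42 (SE), adjusted p = 0.00364). *Robo4*, a guidance receptor of endothelium, was at 0.520, 0.390, 1.92, 0.330 and 0.931 and 6.86, 10.3, 7.63, 1.94 and 11.5 FPKM (log2 fold change 2.16 ± 0.36 (SE), adjusted p = 0.00238). Both followed fat, as did *Emcn* (1.25 ± 0.29) and *Cdh5*, VE-cadherin, at 7.82 to 19.4 FPKM under saline and 16.3 to 42.6 FPKM under Ang II (log2 fold change 1.14), while *Cldn5*, claudin of tight junctions (1.44 ± 0.41), and *Egfl7* (1.26 ± 0.35) did not. *Pecam1*, the most abundant endothelial marker checked, was at 101, 62.5, 153, 185 and 93.6 FPKM under saline and 85.5, 44.2, 53.6, 75.0 and 56.3 FPKM under Ang II, and *Vwf* at 8.81 to 25.3 and 9.48 to 26.2 FPKM. Neither was called, with log2 fold changes of -0.85 and -0.19, so that members lay on both sides of 0. The calls of the markers that did not follow fat ended in fits that left out 1 mouse, that of *Cldn5* without saline replicate 2 or Ang II replicate 2 or 5 (log2 fold change 1.27 to 1.35) and that of *Egfl7* without Ang II replicate 2 or 5 (log2 fold change 1.11 to 1.17).

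Of 7 mural cell markers 2 were called higher and 0 lower (median 0.43), against 6.38% and 2.28% of all genes tested. The list was split, as 3 members had a lower mean log2 level, 2 of them with an adjusted p below 0.05. The lowest log2 fold change was -0.74. The genes called were *Higd1b*, a marker of pericytes, at 0.0878 to 0.914 FPKM under saline and 1.11 to 7.41 FPKM under Ang II (log2 fold change 1.92 ± 0.32 (SE), adjusted p = 0.00237) and *Vtn*, vitronectin, at 0.310 to 1.89 FPKM under saline and 1.56 to 9.29 FPKM under Ang II (log2 fold change 1.79 ± 0.35 (SE), adjusted p = 0.00472). *Higd1b* was below 1 FPKM in every saline-treated mouse and passed the filter only through the Ang II group. The sign of the median of the list turned without Ang II replicate 1 (-0.07) or 4 (-0.09). *Higd1b* fell below the filter in both of these fits. The medians were thus taken over a changed set of members, and the turn cannot be assigned to either mouse. None of 12 adventitial fibroblast markers was called, and 7 of them followed fat (median -0.33, which turned to 0.16 with followers removed). *Clec3b*, tetranectin, was at 157 to 380.1 and 65.1 to 219 FPKM (log2 fold change -0.96 ± 0.31 (SE), adjusted p = 0.0327), and *Serpinf1* at 207 to 329 and 119 to 235 FPKM (log2 fold change -0.56 ± 0.19 (SE), adjusted p = 0.0422). The defining fibroblast markers *Pdgfra*, *Dpt* and *Dcn* were present in all 10 mice, at 7.55 to 9.28, 160.4 to 269 and 198 to 304 FPKM under saline. Under Ang II they were at 4.02 to 9.46, 138 to 192 and 175 to 263 FPKM. Ang II-treated replicates 2, 3 and 5 lay below every saline-treated mouse for *Pdgfra* and *Dcn*.

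Inflammatory genes moved in both directions. Of 17 chemokines tested 2 were called higher and 3 lower (median 0.07), against 6.38% and 2.28% of all genes tested. Without Ang II replicate 1 the median turned to -0.25, with 3 called higher and 4 lower. *Ccl8*, a ligand for monocytes and T cells, was at 2.77, 2.31, 2.24, 1.75 and 2.53 FPKM under saline and 78.0, 22.3, 10.2, 4.50 and 23.4 FPKM under Ang II with no overlap (log2 fold change 2.56 ± 0.54 (SE), adjusted p = 0.00623). *Cxcl14* was at 0.398 to 1.42 and 1.17 to 23.5 FPKM (log2 fold change 1.96 ± 0.50 (SE), adjusted p = 0.0134) and followed fat. *Ccl7* and *Ccl2*, the ligands that draw monocytes through CCR2, went the other way. *Ccl7* was at 16.3, 18.5, 3.87, 6.87 and 5.38 FPKM under saline and 4.78, 0.797, 0.336, 0.783 and 1.41 FPKM under Ang II (log2 fold change -2.09 ± 0.46 (SE), adjusted p = 0.00703). *Ccl2* was at 17.1, 12.8, 2.14, 5.85 and 3.31 FPKM under saline and 4.63, 0.623, 0.506, 1.10 and 1.24 FPKM under Ang II (log2 fold change -1.70 ± 0.50 (SE), adjusted p = 0.0229), with Ang II-treated replicate 1 inside the saline range for both. The neutrophil attractant *Cxcl1* was called at -1.06 ± 0.31. Leaving out 1 mouse ended 2 calls, that of *Ccl2* without saline replicate 2 or Ang II replicate 2, 3 or 5 (log2 fold change -1.47 to -1.69) and that of *Cxcl1* without saline replicate 4 or Ang II replicate 2, 3 or 5 (log2 fold change -0.88 to -1.05), and *Cxcl1* was called under neither rescaling. The receptor *Cxcr4* was at 0.802, 1.84, 1.61, 1.07 and 0.911 FPKM under saline and 6.60, 3.73, 3.53, 2.99 and 4.70 FPKM under Ang II with no overlap, and was called in every alternative (log2 fold change 1.23 ± 0.19 (SE), adjusted p = 0.00204).

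Among 17 macrophage markers 1 was called higher and 1 lower (median 0.39). Without Ang II replicate 1 the median was 0.0557, with 0 called higher and 2 lower, and without Ang II replicate 4 there were 5 called higher. *Lyz2*, lysozyme, was at 141, 97.0, 105, 93.9 and 78.0 FPKM under saline and 1009, 218, 149.5, 151 and 224 FPKM under Ang II (log2 fold change 1.34 ± 0.45 (SE), adjusted p = 0.0367), and without Ang II replicate 1 it was not called, at 0.84, like in 6 other settings that left out 1 mouse. *Mertk*, a receptor for engulfment of dying cells, was at 33.2, 52.3, 35.7, 34.4 and 39.5 FPKM under saline and 13.3, 9.76, 14.6, 28.3 and 9.995 FPKM under Ang II with no overlap (log2 fold change -1.39 ± 0.25 (SE), adjusted p = 0.00312). *Cd68* was at 20.6, 15.8, 11.8, 16.95 and 12.04 and 109.8, 26.5, 18.5, 11.8 and 27.3 FPKM and was not called (log2 fold change 0.86 ± 0.46 (SE), adjusted p = 0.15). *Il6* and *Tnf* were below the filter, at up to 0.414 and 0.907 FPKM under saline and up to 0.121 and 0.562 FPKM under Ang II (exact permutation p = 0.0238 and 0.405, 0.0476 and 0.54 adjusted over 12 genes). None of 11 cytokines and receptors, 5 leukocyte adhesion, 6 MHC class II, 13 interferon-stimulated and 2 neutrophil genes tested was called. *Csf1*, the growth factor of macrophages, was at 30.0 to 49.5 and 16.0 to 31.6 FPKM (log2 fold change -0.87 ± 0.18 (SE), adjusted p = 0.0062), and *Icam1* at 8.09 to 16.0 and 5.92 to 16.98 FPKM (log2 fold change -0.35 ± 0.25 (SE), adjusted p = 0.271). *Cd74* and *H2-Eb1* had log2 fold changes of 0.74 ± 0.37 and 0.89 ± 0.43 (SE), and *S100a8* and *S100a9* of 1.27 ± 0.87 and 1.45 ± 0.92 (SE) with Ang II-treated replicate 1 highest.

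Immunoglobulin transcripts were among the largest increases of the wall genes, and *Igkc* was the largest. *Igkc*, the constant region of the kappa light chain, was at 1.70, 1.81, 9.01, 2.38 and 1.55 FPKM under saline and 134, 45.6, 23.7, 40.4 and 541 FPKM under Ang II. Replicate 5 was the highest, and replicate 4, the Ang II-treated mouse with the least fat RNA (still above every saline-treated mouse in fat level), lay above every saline-treated mouse (log2 fold change 4.47 ± 0.73 (SE), adjusted p = 0.00219). *Ighm*, the heavy chain of IgM, was at 6.38, 1.31, 6.80, 1.87 and 2.12 FPKM under saline and 72.3, 21.8, 17.6, 13.5 and 94.4 FPKM under Ang II with no overlap (log2 fold change 3.03 ± 0.56 (SE), adjusted p = 0.00339). The variable segment *Igkv10-96* was at 0, 0.206, 0, 0 and 0 and 1.44, 4.64, 1.604, 2.33 and 22.4 FPKM (log2 fold change 2.24 ± 0.51 (SE), adjusted p = 0.00857), and reads of such segments can be shared with related ones. No saline-treated mouse reached 1 FPKM of *Igkv10-96*, which entered the test only through the Ang II group where it was high, so its call is no independent support. *Igkc* and *Ighm* were called in every alternative. The B cell marker *Cd79a* was low, at 0.383 to 0.915 FPKM under saline and 0.606 to 2.92 FPKM under Ang II. *C3* of complement was at 107, 69.7, 94.5, 76.4 and 82.4 FPKM under saline and 789, 170.0, 167, 110.1 and 141 FPKM under Ang II (log2 fold change 1.25 ± 0.44 (SE), adjusted p = 0.0418), followed fat and lost its call in 9 of 10 settings that left out 1 mouse, without Ang II replicate 1 at 0.76.

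Heat shock genes had 4 of 11 members called lower (median -0.98, -0.81 and -0.72 under the rescalings), against 2.28% of all genes tested. *Hspb1*, a small chaperone of actin filaments abundant in smooth muscle, was at 2464, 3508, 3108, 2936 and 1693 FPKM under saline and 714, 797, 714, 793 and 666 FPKM under Ang II. All 5 Ang II-treated mice, replicate 4 included, lay close together and below the lowest saline value (log2 fold change -1.85 ± 0.20 (SE), adjusted p = 0.00181). *Hspa8* and *Hsp90aa1*, constitutive and inducible cytosolic chaperones, were at 507 to 1506 and 306 to 568 FPKM (log2 fold change -1.10 ± 0.31 (SE), adjusted p = 0.0191) and at 90.2 to 188 and 43.3 to 84.6 FPKM (log2 fold change -1.02 ± 0.23 (SE), adjusted p = 0.00779). The inducible *Hspa1a* was called at -1.44 ± 0.48. The last 3 calls ended without saline replicate 1 or 2, without the first at log2 fold changes of -0.96, -0.94 and -0.97, and under both rescalings, where only *Hspb1* was called. *Hsp90aa1* also lost its call without Ang II replicate 1, and *Hspa1a* without any of Ang II replicates 1, 2, 3 or 5 (log2 fold change -1.37 without replicate 1, adjusted p = 0.0641). Among 17 redox enzymes 3 were called higher, *Gpx3* (2.59 ± 0.45), *Cat*, catalase (2.07 ± 0.29), and *Sod2*, the mitochondrial superoxide dismutase (2.04 ± 0.32). All 3 followed fat, and the median of the list was 0.06, which turned to -0.03 without Ang II replicate 1. Of 17 clock genes 2 were called lower, *Per2* (-1.44 ± 0.29) and *Ciart* (-1.004 ± 0.30), and the hour of collection is not given in the sources used here. *Ciart* lost its call without saline replicate 3 or 4 or Ang II replicate 1 or 5 (log2 fold change -0.80 to -0.90) and after the first rescaling. The apoptosis and cell cycle lists, with 17 and 6 members tested, had none called.

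Other wall genes with large changes and no overlap between groups had no place in a list. *Klk10*, a secreted serine protease of the kallikrein family, was at 37.1, 42.1, 64.2, 91.2 and 25.4 FPKM under saline and 5.82, 4.39, 7.05, 19.4 and 4.30 FPKM under Ang II (log2 fold change -2.60 ± 0.40 (SE), adjusted p = 0.00205). *Gkn3*, of the gastrokine family, was at 41.1, 10.3, 11.4, 23.2 and 7.28 and 3.87, 0.332, 1.61, 6.31 and 1.51 FPKM (log2 fold change -2.38 ± 0.51 (SE), adjusted p = 0.00624). The gene of the microRNA miR-212 was at 11.5, 12.6, 3.65, 7.36 and 2.58 FPKM under saline and 0.405, 0, 0, 0.766 and 0.445 FPKM under Ang II (log2 fold change -2.54 ± 0.35 (SE), adjusted p = 0.00181). It was below 1 FPKM in every Ang II-treated mouse and passed the filter only through the saline group. Such a short gene has an imprecise FPKM, and reads over it come from longer RNA, not from the mature forms, which are shown with the seed, bases 2 to 8, in capitals (RefSeq, GRCm38.p6, chr11:75173443-75173464 and chr11:75173403-75173425, + strand).
miR-212-3p: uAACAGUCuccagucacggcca
miR-212-5p: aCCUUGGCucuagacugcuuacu

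Higher wall genes included *Jak3*, the kinase of cytokine receptors with the common gamma chain, at 0.562, 1.19, 1.06, 2.15 and 1.14 FPKM under saline and 15.4, 13.5, 10.2, 2.28 and 13.9 FPKM under Ang II (log2 fold change 2.28 ± 0.39 (SE), adjusted p = 0.00258), and *Igfbp3*, which binds insulin-like growth factors, at 1.45 to 2.44 and 3.82 to 18.4 FPKM (log2 fold change 2.17 ± 0.32 (SE), adjusted p = 0.00187). *Nol3*, an inhibitor of apoptosis found in muscle, was at 1.33 to 2.43 and 4.93 to 22.3 FPKM (log2 fold change 2.19 ± 0.30 (SE), adjusted p = 0.00181). In each of the 3 the lowest Ang II value was that of replicate 4. *S100b*, a calcium-binding protein of glia that adipocytes also make, was at 3.42, 1.67, 2.86, 1.58 and 2.59 FPKM under saline and 12.1, 27.8, 21.4, 6.41 and 28.8 FPKM under Ang II (log2 fold change 2.42 ± 0.35 (SE), adjusted p = 0.00181), and *Mbp*, a myelin protein, was at 0.655 to 1.33 and 1.98 to 4.62 FPKM (log2 fold change 1.10 ± 0.17 (SE), adjusted p = 0.00206). *Mbp* lost its call without Ang II replicate 5, at 0.99. *Gm28661*, at 53.9 to 112 and 142 to 871 FPKM (2.55 ± 0.42), is a nuclear copy of mitochondrial sequence, so its value is uncertain. *Krt18*, the 1 mesothelial marker tested, was called lower (log2 fold change -1.19 ± 0.26 (SE), adjusted p = 0.00686), but not without Ang II replicate 1 (log2 fold change -0.996) or once followers were removed (-0.94). The mesothelial markers *Msln* and *Upk3b* were below the filter. *Msln* was at 0.0343 to 0.366 FPKM under saline and 0.0168 to 1.31 FPKM under Ang II. *Upk3b* was at 0.0843 to 0.408 and 0.0703 to 2.05 FPKM, so these markers did not fall in every mouse.

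The response was set beside that of the *Plod1*-/- mice, with which it shares no samples, by the interaction of genotype and treatment on all 20 mice. Among 13263 genes tested the responses differed in 2129 (16.1%). *Xist* was listed at 15.1 FPKM in 1 saline-treated and 7.93 FPKM in 1 Ang II-treated *Plod1*-/- library and at 0.0328 FPKM or less in the remaining 18, although the mice are described as male, and without these 2 libraries, a setting chosen after the data were seen, 2311 genes differed. Of the 20 wall genes with the largest changes in WT mice 14 differed. These 20 were chosen for their change in the same WT mice, which favours a difference, so this count cannot be set against the 16.1%. *Fos* was at 17.9, 6.40, 33.6, 226 and 123 FPKM in saline-treated and 99.5, 378, 401, 220.4 and 195 FPKM in Ang II-treated *Plod1*-/- mice, where its log2 fold change was 2.45 ± 0.68 (SE), and the responses differed by 7.48 ± 0.97 (adjusted p = 3.91e-05). The sign was thus opposite in the genotypes for *Fos* and, with 2.57, for *Fosb*. *Nr4a3* and *Nr4a1* had log2 fold changes of -0.32 and -0.05 in *Plod1*-/- mice. *Igkc* and *Ighm* had -0.46 ± 0.76 and 0.02 ± 0.61 (SE) there, and both differences were called (adjusted p = 0.00213 and 0.0115). *Spp1* and *Ccl8* had log2 fold changes of 4.37 and 3.23 in *Plod1*-/- mice, and the differences from WT, 1.31 ± 1.09 and 0.67 ± 0.80 (SE), were not called. *Klk10*, *Gkn3*, *Jak3* and *Igfbp3* were not called for a difference either. For the early genes as a list, 18 of 22 had a called difference toward a higher response in *Plod1*-/- mice, where the median log2 fold change was 0.79. The contractile genes had 5 of 13 called toward a lower response, with a median log2 fold change of -1.80 in *Plod1*-/- mice. Without the 2 libraries that held *Xist*, 9 of 13 contractile genes and 17 of 22 early genes were called, in the same directions, and the same 14 wall genes differed.

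**Figure D5:**
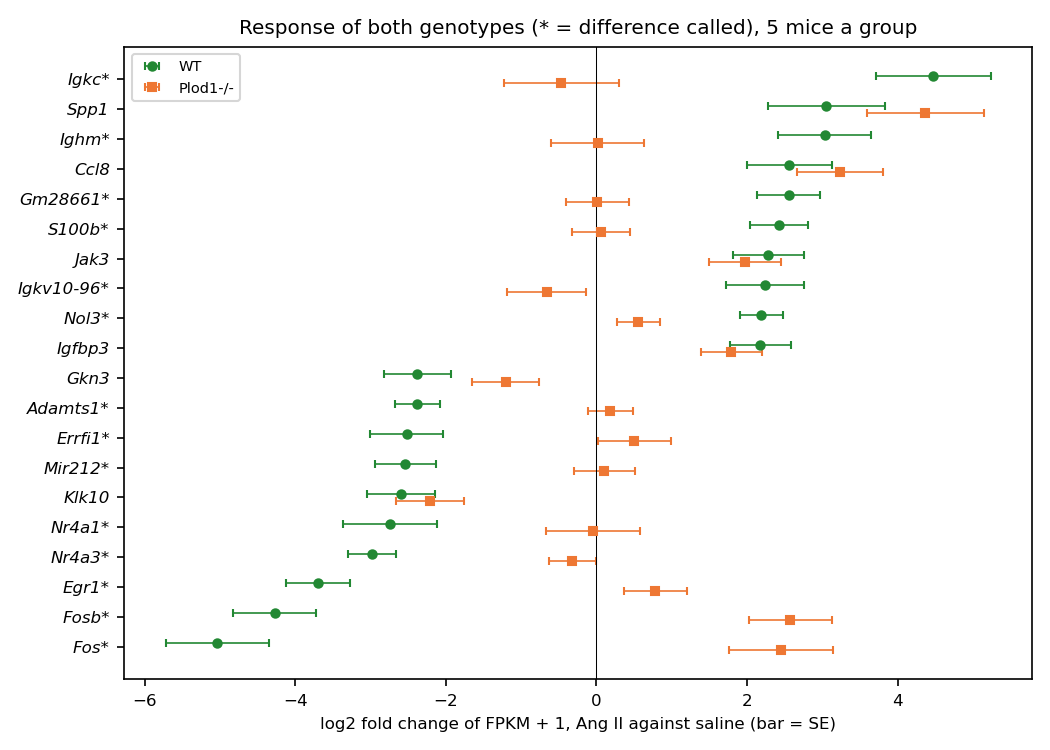
Log2 fold change of FPKM + 1 under Ang II (x axis, with SE) in WT (circles) and *Plod1*-/- mice (squares) for the 20 wall genes with the largest changes in WT mice (y axis), 5 mice in each group, with asterisks for the 14 genes whose difference was called. The *Fos* and *Fosb* points lie on opposite sides of 0, and those of *Klk10*, *Jak3* and *Igfbp3* lie close together. Choosing the genes by their change in WT mice favours a difference.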

How the data were processed

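RNA-seq of the abdominal aorta of 20 mice was used, 10 of them WT. Per the study's methods, the authors removed reads of ribosomal RNA, aligned the rest with HISAT2, assembled transcripts with StringTie and deposited FPKM per Ensembl gene from Cuffquant and Cuffnorm, so that values are relative to the other genes of a library and to gene length. The submitters' processing notes name the build mm10 and list Bowtie2 2.2.3, HISAT2 2.1.0 and HTSeq 0.6.0. No counts were used, so depth is unknown and no count test was run. Of 43422 genes, 43226 had a symbol in GENCODE M21 (GRCm38). The 10 WT libraries summed to 353864 to 364341 FPKM under saline and 359884 to 430580.0 FPKM under Ang II, and no libraries were identical.

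Log2(FPKM + 1) was fitted in R 4.3.3 with limma 3.58.1 (variance trend, Benjamini-Hochberg adjustment over all genes tested), in the 10 WT mice without covariates, and in all 20 mice for the interaction. Genes below the filter were compared by exact permutation tests. Followers were found within *Plod1*-/- groups, after each group mean was subtracted. Genes overlapping another gene on the opposite strand (*Tagln*, *Tgfb3*, *Timp3*, *Timp4*, *Mfap4*, *Junb*, *Dusp1*, *Jun*, *S100b*) are uncertain, since the strand setting of the counting is not given in the sources used here. On simulated data the test recovered 190 of 200 genes changed by 1.5 on the log2 scale, with 6 false calls among 12085 genes. Whether these numbers carry over to the aorta libraries, in which some mice stood apart from their group, was not tested. Genes were named by a rule: those named in the study for mouse aorta, up to 5 called members of each list with the largest change (or the 2 most abundant), the 10 largest increases and decreases of wall genes without overlap, the 3 most abundant members of the other lists, and all early, contractile and angiotensin genes. The members and lists were chosen with earlier results of these data known. *Pecam1*, *Vwf* and *Cdh5* and the macrophage, B cell, T cell, fibroblast and mesothelial markers were named as fixed cell type markers. Some genes that the rule names or the counts include are not reported here. Alternatives changed the pseudocount, filter, variance trend, mouse weights, normalization, follower threshold, replicate block and the mice included.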

Additional observations from a re-analysis of the deposited data

Results flagged for a closer look

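The mean log2 level of a list stood apart in 1 mouse of its group in 9 of 96 combinations of list and group, by a gap to the nearest mouse of more than 0.71 of the range of the group (Dixon's test), where chance alone gives about 1 in 20. Ang II-treated replicate 1 was above the other 4 mice of its group for macrophage markers (5.53 against 3.62 to 3.81), leukocyte adhesion (4.02 against 2.01 to 2.58), complement (7.24 against 5.65 to 6.01) and redox enzymes, for which it was at 6.05 against 5.20 to 5.45. Ang II-treated replicate 4 was above the rest for TGF-beta and BMP signalling (4.69 against 4.11 to 4.25) and for proteoglycans and hyaluronan (5.76 against 4.78 to 5.05). Among the saline-treated mice, replicate 4 was apart for contractile genes (8.40 against 8.59 to 8.67), replicate 5 for neutrophil markers (4.48 against 1.14 to 1.62) and replicate 3 for skeletal muscle (2.72 against 2.14 to 2.26). The cause of these departures was not tested.

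The response of *Plod1*-/- mice differed from that of WT mice by the interaction test in 14 of the 20 wall genes with the largest changes in WT. It was higher on the log2 scale by 7.48 in *Fos*, 6.85 in *Fosb*, 4.48 in *Egr1*, 2.69 in *Nr4a1*, 2.66 in *Nr4a3*, 3.02 in *Errfi1*, 2.56 in *Adamts1* and 2.64 in *Mir212*. The differences were -4.93 in *Igkc*, -3.01 in *Ighm*, -2.90 in *Igkv10-96*, -2.54 in *Gm28661*, -2.37 in *S100b* and -1.63 in *Nol3*. The genes were chosen for their change in the same WT mice, which favours a difference, so the count is no independent support.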

How the results depend on the processing

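Of 102 named genes called, 69 could be tested in all 20 settings, and 36 of these were called in each. Counting genes that some settings drop, 62 were called wherever they were tested. None of the 102 turned direction in a setting that tested it. Counts moved by more than 1.5 times as follows. With a pseudocount of 0.1, 463 genes were called lower and 765 wall genes called (324 higher, 441 lower). With weights per mouse these were 502 and 770 (298 and 472). Without Ang II replicates 1 and 4 (chosen after seeing the data) they were 555 and 806 (281 and 525). After rescaling, 154 genes were called lower, and 282 wall genes higher and 149 lower. With followers also removed, 469 were called, 371 higher and 98 lower. By adjusted p alone 4560 were called (1985 higher, 2575 lower), 3554 of them wall genes (1046 and 2508). Followers set at a correlation of 0.5 left 82 wall genes called higher, and at 0.9 left 694 called, 422 higher. Leaving out 1 mouse gave 824 to 1403 genes called, 622 to 916 higher and 202 to 487 lower, and 324 to 752 wall genes, 128 to 293 higher and 194 to 459 lower. The upper ends were without Ang II replicate 4 and the lower ends without Ang II replicate 2, or 5 for wall genes called higher. The interaction then called 1890 to 2350 genes. Direction turned for 3 genes that were not called. After rescaling the log2 fold change was 0.14 for *Cd47*, 0.083 for *Mmp19* and 0.12 for *Plod1*, and with followers removed 0.25 for *Cd47* and 0.23 for *Plod1*. Leaving out 1 mouse gave -0.12 to 0.063 for *Cd47* and -0.25 to 0.085 for *Mmp19*. The cause of these changes was not tested.

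Same-numbered mice of the groups deviated together in 1 of 5 pairs (correlations -0.0657 to 0.216), and 1 of 10 mice correlated best with its own number, so the numbers were not taken as pairs. A fit with the replicate block called 1026 genes, 436 of them wall genes, and 2094 for the interaction. Library depth is unknown, so counting error could not be set beside any FPKM, and low FPKM are the least precise.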
